A study of Rattus norvegicus with 26 samples.

Results

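RNA of rat hepatocytes isolated from fetal and from adult liver was compared before any cell was transplanted. The comparison holds 8 of the 26 libraries of the series, 4 of fetal cells sorted as LAP+ and 4 of adult cells, chosen by their titles and not by any measured value. LAP+ is the submitters' name for a marker of an immunopurified fetal fraction, and the labels do not spell it out. All 8 libraries were made from total RNA of cell pellets with the same RNA and library kits. The labels call the numbered samples biological replicates and give the developmental stage, but no strain, sex, age, genotype or treatment, and they do not say whether cells of several animals were pooled. The p-values therefore measure the spread between libraries. For single genes, this spread was estimated over all 16 libraries made before transplantation. The other 2 fetal sorts of the series, LAP+/OC2+ and LAP+/OC2-, with 4 libraries each, entered the fit and are named only where their levels stand beside a result. The LAP+/OC2+ libraries were shallower, with 7871347 to 8965763 counts, and 38.9 to 78.6% of these were mitochondrial, against 4.11 to 10.3% in the 8 libraries compared.

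Hepatocytes are the main working cells of the liver. In the fetus they still divide, grow and share the organ with blood-forming cells, and around birth they begin the metabolic, detoxifying and bile-forming work of the adult organ. Secretion of plasma proteins starts early in their development, whereas many enzymes of drug and steroid metabolism appear late. Several of these functions are coded by gene families whose members lie side by side on a chromosome, so that neighbouring genes can be followed together through maturation. The deposited features carry Ensembl-style identifiers without symbols, and the reference table paired 0 of the 32552 identifiers with a name. Genes are therefore given by identifier and by chromosome, start and end as deposited, and the identity of the cells could not be checked against markers.

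The totals ran from 14163256 to 16248869 counts in the adult libraries and from 15136347 to 15800477 in the LAP+ libraries. A count of 0 in 1 of these libraries allows up to 3 counts, which is 0.132 to 0.225 CPM. Levels in CPM are counts scaled to a common total of 1000000 per library, with the totals first adjusted by the TMM method. Such limits cover counting error only. Among 7368 genes at 10 CPM or more in at least 1 adult library, adult library 2 held 42 genes at least 4-fold above and 46 at least 4-fold below all of the other 3 adult libraries. Its features on chromosome Y, which the male carries, summed to 57 counts (3.73 CPM), against 120.3 to 142.5 CPM in the other adult libraries and 58.6 to 128.9 CPM in the LAP+ libraries. Among 7580 genes at that level in a LAP+ library, LAP+ library 4 held 54 genes at least 4-fold above the other 3, and LAP+ library 2 held 20 genes at least 4-fold below them. Over the 54 genes the median was 68.9 CPM among the LAP+/OC2+ libraries and 1.61 CPM among the LAP+/OC2- libraries. Of the 42 genes above in adult library 2, 3 were called higher in LAP+ cells and 22 lower, which became 14 higher and 17 lower without that library. The part of these libraries' differences in the results was looked at only by leaving libraries out, and values without a library are given where they change a call of a gene described.

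Fetal and adult hepatocytes differed in more than every second gene that passed the low-count filter and was tested. Of 13818 genes tested, 8330 (60.3%) passed an adjusted p of 0.05 in edgeR's quasi-likelihood test with Benjamini-Hochberg adjustment, 4387 of them higher in LAP+ cells (31.7%) and 3943 lower (28.5%). At a difference of at least 2-fold, 3062 genes were higher (22.2%) and 2395 lower (17.3%). The 4 LAP+ and the 4 adult libraries did not overlap in CPM at 7770 genes (56.2%). A fit without the low-count filter tested 23217 genes and called 4541 higher and 3936 lower at any size. The split between directions depended on the scaling. The median log2 difference of all genes was 0.06 with TMM scaling and 0.53 with library totals alone, which called 5578 genes higher and 2025 lower, so that 73.4% of calls were higher in place of 52.7%. No gene called in either direction was called in the opposite direction by any alternative fit. These fits reuse the same counts, so this is a weak check, and signs turned at some genes without a call. Directions below are relative to the TMM scaling.

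Rises outnumbered falls at most sizes of the fitted difference, and falls outnumbered rises at the most extreme size counted. At least 32-fold differences were called at 276 genes higher and 193 genes lower in LAP+ cells. At least 256-fold, 9 called genes were higher and 79 lower; 5 of the former had no adult count and 19 of the latter no LAP+ count, where the fitted size depends on the prior count. No LAP+ count at all was found for 25 tested genes, of which 24 were called, and no adult count for 95, of which 77 were called.

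**Figure D1:**
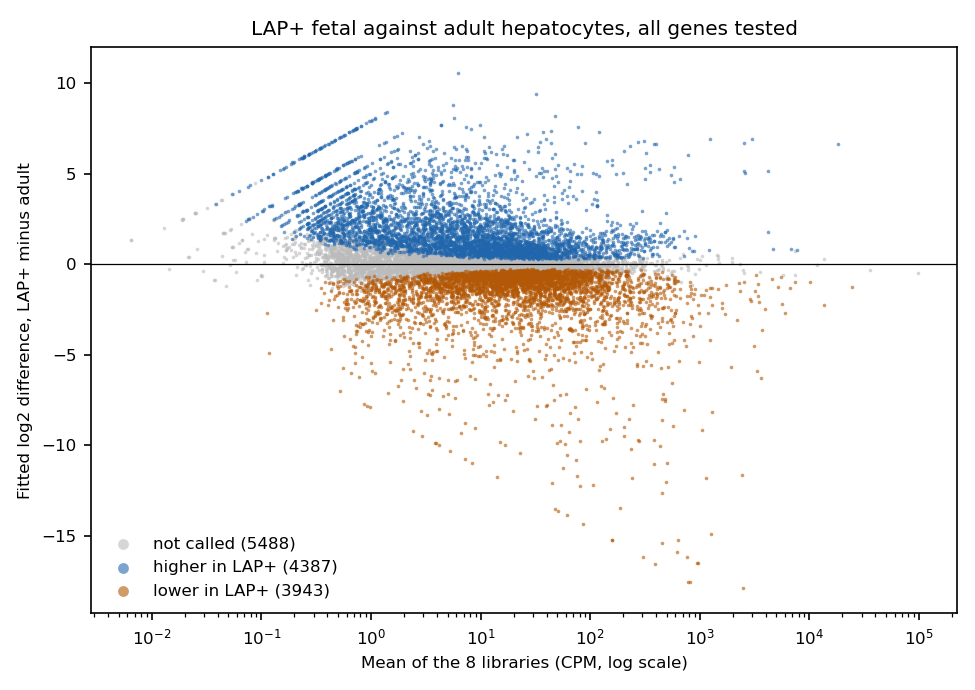
Fitted log2 difference (LAP+ minus adult, vertical axis) against the mean CPM of the 8 libraries (log scale) for the 13818 genes tested, with 4387 genes called higher in blue, 3943 called lower in orange and 5488 not called in grey. Differences beyond -10 on the log2 scale occur at genes above 1 CPM, whereas the high end of the abundance axis holds more orange than blue points; the diagonal lines of blue points at low abundance are genes with 0 or few adult counts.

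The most abundant RNA of both stages came from the same gene. ENSRNOG00000002911 at chr14:19176277-19191863 stood at 118495, 124627, 102289 and 112060 CPM in the adult libraries and at 95082, 65917, 78919 and 79854 CPM in the LAP+ libraries. Every LAP+ library lay below every adult library, but the log2 difference of -0.52 ± 0.31 (SE) did not pass (adjusted p = 0.163). A fit of the 8 libraries alone called it lower at nearly the same difference (log2 -0.49, adjusted p = 0.0241), and with library totals alone the difference was -0.06.

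Its neighbour on the same strand, ENSRNOG00000002889 at chr14:19141755-19159923, rose nearly to the same rank. Between the pair lie 16353 nt. The neighbour stood at 366, 361, 397 and 343 CPM in adult cells and at 34705, 43470, 33166 and 32635 CPM in LAP+ cells, a 98.2-fold higher mean (log2 6.62 ± 0.33, adjusted p = 6.85e-11). It held rank 325 in adult and rank 2 in LAP+ cells. Per kilobase of exon it reached 18087 CPM in LAP+ cells, against 38638 CPM for the first gene. The next gene along, ENSRNOG00000002878 at chr14:19078680-19132208, moved the other way, from 1351 ± 277.9 to 73.2 ± 11.9 CPM (mean ± SD, n = 4; log2 -4.21, adjusted p = 2.39e-09). The one after it, ENSRNOG00000039504, did not pass, at 118.5 ± 18.01 CPM in adult against 96.1 ± 44.7 CPM in fetal libraries (adjusted p = 0.582). Within 1 group of 4 genes on 1 strand, 1 gene rose, 1 fell and the other two did not pass.

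A second group with opposite directions lies on chromosome 8. ENSRNOG00000045679 at chr8:50525091-50526875 rose from 3312 ± 500.3 CPM in adult to 5939 ± 404.6 CPM in LAP+ cells (1.79-fold, log2 0.84 ± 0.27, adjusted p = 0.0135). The following gene, ENSRNOG00000047503, begins 2442 nt further on the other strand, at chr8:50529318-50531498. It stood at 3782, 3937, 4001 and 3390 CPM in adult cells and at 111.2, 33.6, 86.6 and 65.8 CPM in LAP+ cells, which is 50.8-fold lower (log2 -5.67 ± 0.38). The next 2 genes fell further. ENSRNOG00000055909 at chr8:50537009-50539376 went from 948 to 5.47 CPM, and ENSRNOG00000018436 at chr8:50559126-50561736 from 1132 to 2.33 CPM. The latter was 939 CPM or more in each adult library and 3.28 CPM or less in each LAP+ library. Beyond them the differences were small. ENSRNOG00000018481 differed by a log2 of -0.37 (adjusted p = 0.0357), which became 0.10 with library totals alone and did not pass without adult library 2 (adjusted p = 0.103) or LAP+ library 4 (adjusted p = 0.0634), and ENSRNOG00000018665 did not pass (log2 -0.08, adjusted p = 0.731).

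Other abundant genes moved together with their neighbours. On chromosome 2, between 181987217 and 182056673, ENSRNOG00000025074, ENSRNOG00000024848 and ENSRNOG00000007092 stood at 4913, 5657 and 5663 CPM in adult cells and at 8664, 9643 and 9193 CPM in LAP+ cells. Their log2 differences were 0.82, 0.77 and 0.70. The first and the second passed (adjusted p = 0.0309 and 0.0299), and the third did not (adjusted p = 0.0574) although it was called with library totals alone. Both calls were lost without adult library 2 (adjusted p = 0.0822 and 0.0866) and without LAP+ library 4 (adjusted p = 0.0620 and 0.0652), at log2 differences of 0.67 to 0.79. The last and far less abundant gene, ENSRNOG00000006655, rose from 25.97 to 46.6 CPM (log2 0.84, adjusted p = 0.00103). LAP+ library 2 was the lowest LAP+ library for each of the 4. Without it, ENSRNOG00000007092 was called higher (log2 0.86, adjusted p = 0.0266).

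On chromosome 11 an abundant gene that did not pass lay beside genes that fell. ENSRNOG00000038370 at chr11:81707804-81735592 stood at 14885 ± 2963 CPM in LAP+ libraries, against 12170 ± 850 CPM in adult ones. It did not pass with TMM scaling (adjusted p = 0.455) and was called higher with library totals alone (log2 0.74). ENSRNOG00000001806 fell from 4754 to 1148 CPM, and ENSRNOG00000001809, at chr11:81621283-81639952, from 2360 to 131 CPM (log2 -4.17 ± 0.26). ENSRNOG00000001803 and ENSRNOG00000026458 on the other side of it did not pass.

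**Figure D2:**
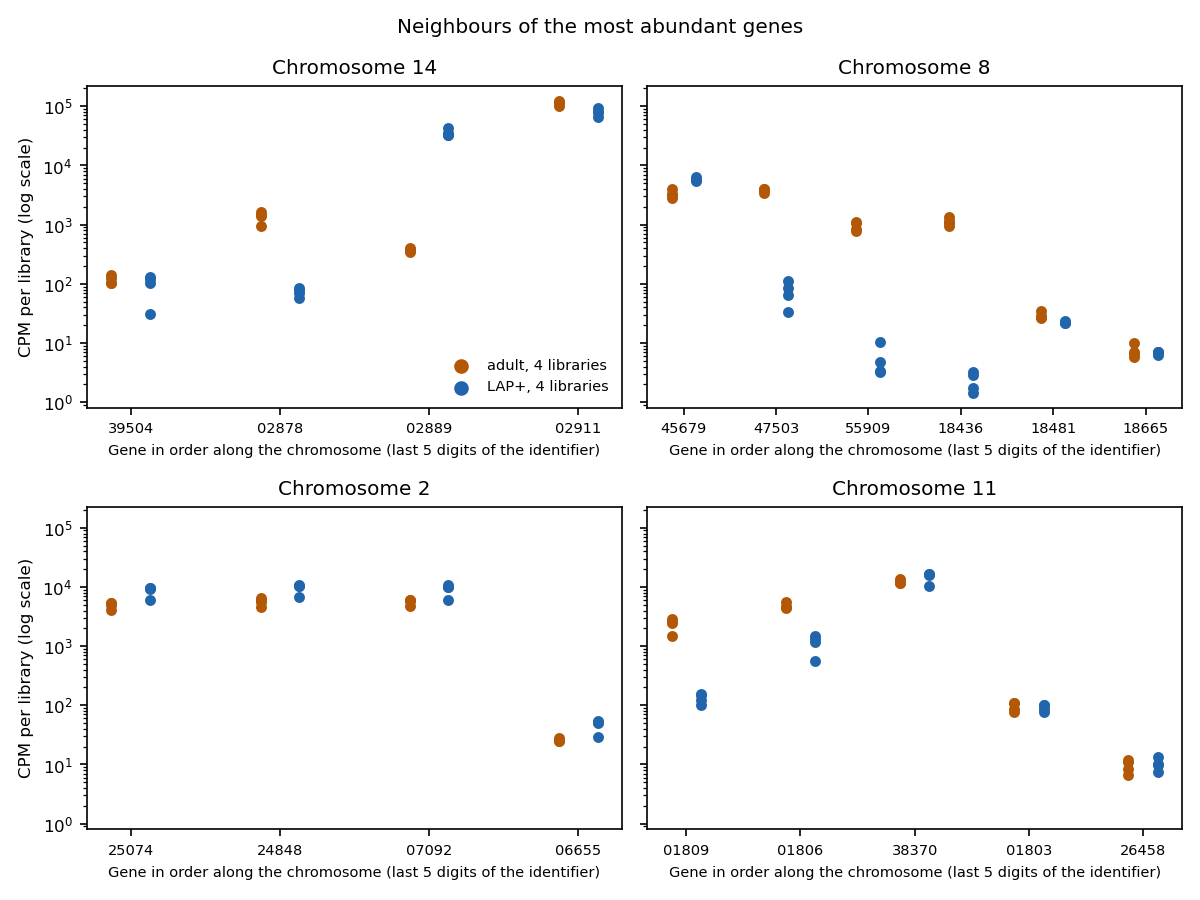
CPM of each library (log scale) for genes in their order along 4 chromosomes, with the 4 adult libraries in orange and the 4 LAP+ libraries in blue. On chromosome 14 the blue points lie 98.2-fold above the orange at ENSRNOG00000002889 and far below them at ENSRNOG00000002878; on chromosome 8 they lie above at the first gene and below at the following 3; on chromosome 2 they lie above, except that LAP+ library 2 falls among the adult libraries at ENSRNOG00000007092.

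The lists of the most abundant nuclear genes overlapped in part. Of the 10 most abundant genes of each group 5 were shared, which is 50% of either list, and of the 100 most abundant 42 were shared. Of the 50 most abundant adult genes, 37 were called lower in LAP+ cells and 3 higher (median log2 difference -1.98). Of the 50 most abundant LAP+ genes, 17 were called higher and 16 lower. Ranking by the same libraries that are compared favours these directions, so they are a description. Among the leading adult genes, ENSRNOG00000018454 at chr1:80612895-80617057 fell from 22404 ± 3198 to 4638 ± 951 CPM (4.83-fold, log2 -2.27 ± 0.27), and its neighbour ENSRNOG00000018426 fell from 2622 to 599 CPM. ENSRNOG00000014964 at chr19:42097995-42100804 fell from 10373 to 1614 CPM. ENSRNOG00000016275 at chr18:15532963-15540177 fell from 9490 to 3741 CPM, and adult library 2 held less of it (6606 CPM) than the other 3 (10427 to 10475 CPM).

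A gene of rank 10 in adult cells was among those far lower in LAP+ cells, beside neighbours of both directions. ENSRNOG00000037188 at chr4:154391647-154729310 stood at 6673, 5226, 7842 and 8640 CPM in adult cells and at 117.7, 8.82, 135.9 and 104.1 CPM in LAP+ cells. LAP+ library 2 was the low one. ENSRNOG00000045772, whose span of chr4:154423209-154472924 lies inside that of the first, rose from 0.390 ± 0.102 to 27.4 ± 3.93 CPM (70.3-fold, adjusted p = 1.94e-09). ENSRNOG00000028896 at chr4:154309426-154359137 rose from 0.376 to 22.1 CPM, and ENSRNOG00000042228 at chr4:154780302-154855098 fell from 329 to 14.6 CPM. The deposited files do not state a strand setting, so reads of the overlapping pair cannot be told apart by strand.

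The 10 largest falls came from genes well expressed in adult cells, with at most 1 count in all 4 LAP+ libraries together. ENSRNOG00000045799 at chr8:41657566-41661238 stood at 5951, 1814, 6475 and 5453 CPM in the adult libraries. The LAP+ libraries held 1 count of it against 285967 adult counts, a ratio of 395478 per scaled library size (95% counting interval 70980 to 15620600). ENSRNOG00000050232 at chr8:37702231-37705044 stood at 1835, 586, 2273 and 1754 CPM in adult cells and had no LAP+ count. By the adult mean it was at least 10832-fold lower, against a floor of 3 counts per library. The short feature ENSRNOG00000047843, 87 nt of exon at chr8:41701850-41702599, was at least 5299-fold lower by the adult mean. Adult library 2 held 228 CPM of it, against 814 to 1097 CPM in the other adult libraries. The LAP+/OC2- libraries, from the same fetal stage, held a mean of 35.0 ± 8.69 CPM of the first gene and 11.6 ± 3.16 CPM of the second, levels that were below 1% of the adult means. The LAP+/OC2+ libraries held 24.8 ± 9.91 and 9.61 ± 5.19 CPM. The origin of these traces was not tested.

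Adult library 2 was the lowest adult library for 9 of these 10 genes, and for 6 of them it held only 4.19 to 12.2 CPM. ENSRNOG00000052810 at chr1:257970345-258004434 was at 1809, 2344 and 2142 CPM in adult libraries 1, 3 and 4 and at 10.3 CPM in adult library 2. ENSRNOG00000050595 and ENSRNOG00000009273 on chromosome 5 showed the same order, with 12.2 and 11.98 CPM in adult library 2 and at least 2231 CPM in the others. ENSRNOG00000001957 at chr14:22072024-22089248 had 9.16 CPM in adult library 2 against 1676 to 2280 CPM, and ENSRNOG00000043131 at chr8:38150659-38154344 had 8.31 CPM against 1287 to 1979 CPM. In the other direction, ENSRNOG00000024016 at chr1:147713892-147888007 was highest in adult library 2, at 1432 CPM against 646 to 813 CPM. Each of the 10 genes was called lower also without that library. Some falls outside the 10 rested on it much more. ENSRNOG00000004692 at chr7:102294797-102298522 was at 3060 CPM in adult library 2 and at 5.27 to 5.62 CPM in the others, and its log2 difference went from -9.71 to -2.57 without that library. ENSRNOG00000047945 at chr1:258709721-258766881 was at 3499 CPM there against 23.4 to 34.3 CPM, and its difference went from -8.64 to -3.72. At far lower levels, LAP+/OC2+ library 2 stood apart from its group in the same directions. It held 0.237 CPM of ENSRNOG00000050595 against 7.48 to 18.6 CPM, and 23.7 CPM of ENSRNOG00000004692 against 0 to 1.29 CPM. The cause was not tested. Among the 20 genes that varied most between adult libraries, the direction turned for 2 without adult library 2. ENSRNOG00000037549 at chr7:101069104-101072232 was at 341.7 CPM in adult library 2 and at 0.375 to 0.676 CPM in the other adult libraries, against 1.103 to 2.33 CPM in LAP+ cells. Its log2 difference of -5.78 (adjusted p = 0.00996) became 1.48 without that library and did not pass (adjusted p = 0.0575). ENSRNOG00000010725 at chr4:57952982-57959109 likewise went from -5.33 (adjusted p = 0.0119) to 1.46 (adjusted p = 0.0958).

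The 10 largest rises fell into 5 that were shared by all LAP+ libraries and 5 that were carried by LAP+ library 4. Of the first kind, ENSRNOG00000049096 at chr15:34622123-34625121 had 5 counts in the adult libraries together and stood at 109.5, 28.9, 57.3 and 59.1 CPM in LAP+ cells (770-fold by the means, log2 9.41 ± 0.54, adjusted p = 4.28e-10). ENSRNOG00000025615, a single-exon feature at chr15:28043758-28044210, was the most even, at 16.9, 11.6, 15.05 and 14.9 CPM against 4 adult counts in all. ENSRNOG00000028926 at chr10:14689094-14690821 stood at 4.63 to 19.8 CPM against 2 adult counts in all, a ratio of 325 (95% counting interval 89.6 to 2685). ENSRNOG00000031792 at chr15:35001838-35020760 stood at 6.40 to 27.9 CPM, and ENSRNOG00000029286 at chr1:169003788-169005190 at 37.8 to 146.7 CPM against 0.300 to 0.725 CPM in adult cells. LAP+ library 2 was the lowest LAP+ library in all 5.

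The other 5 were high in LAP+ library 4 alone. ENSRNOG00000030093 at chr16:75338052-75340360 stood at 7.43, 7.85 and 7.999 CPM in LAP+ libraries 1 to 3 and at 589.8 CPM in library 4. ENSRNOG00000050586 at chr11:67451549-67529051 stood at 5.07 to 5.74 CPM and at 368.1 CPM, and ENSRNOG00000032728 at chr11:67329657-67337948 at 0.848 to 0.974 CPM and at 75.6 CPM. ENSRNOG00000038133 at chr16:75517505-75518336, which had no adult count, stood at 0.461 to 0.662 CPM and at 48.2 CPM, and ENSRNOG00000050110 at chr11:67465236-67470941 at 0.583 to 1.103 CPM and at 42.6 CPM. Of these 5 genes, 3 lie close together on chromosome 11 and 2 on chromosome 16. Their means in the LAP+/OC2+ sort were 1056, 444, 110.7, 39.0 and 51.5 CPM in the order given. The part of such cells in LAP+ library 4 was not tested. Without that library the 5 were still called higher, at log2 differences of 3.27, 4.01, 3.30, 6.07 and 5.01 in place of 7.57, 8.17, 7.71, 10.57 and 8.80. All 5 lost their call with limma-voom and sample weights (adjusted p from 0.0685 to 0.155). Over all 54 genes at least 4-fold above in that library, 50 were called higher with it, and 44 higher and 4 lower without it.

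**Figure D3:**
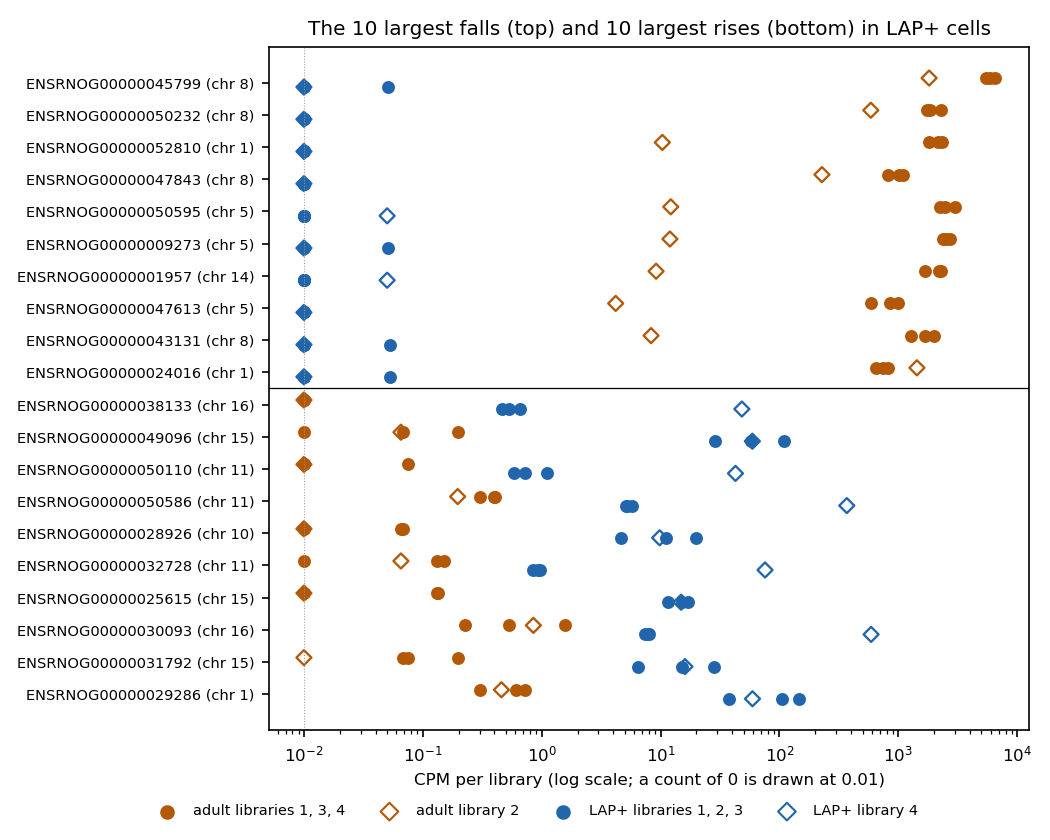
CPM per library (log scale, a count of 0 drawn at 0.01) of the genes with the 10 largest falls (above the line) and the 10 largest rises (below it), adult libraries in orange and LAP+ libraries in blue, with adult library 2 and LAP+ library 4 as open diamonds. The open orange diamond lies near 10 CPM at ENSRNOG00000052810 while the other adult libraries lie at 1809 CPM or more, and the open blue diamond lies far above the other LAP+ libraries at 5 of the 10 rises.

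Several rises of high abundance were of similar level in all LAP+ libraries, among them the following 3. ENSRNOG00000020369 at chr1:215828102-215846911 stood at 50.8, 47.4, 53.4 and 45.2 CPM in adult cells and at 5706, 5610, 6721 and 5658 CPM in LAP+ cells (120.4-fold, log2 6.91 ± 0.35). ENSRNOG00000040350, a feature of 84 nt at chr1:215745981-215746064, rose by nearly the same factor, from 20.2 ± 1.46 to 2449 ± 180.8 CPM (121.1-fold). Per kilobase it reached 29155 CPM in LAP+ cells, next to ENSRNOG00000002911, the first in that order. ENSRNOG00000010262 at chr3:119057517-119075619 rose from 47.6 ± 3.07 to 4995 ± 680 CPM. LAP+ and adult libraries were far apart at each of the 3.

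A further set of abundant rises differed between the LAP+ libraries themselves. ENSRNOG00000029886 at chr10:15602794-15603649 stood at 3068, 7770, 15395 and 6313 CPM in LAP+ libraries 1 to 4 and at 209 to 263 CPM in adult cells (34.8-fold, log2 5.12 ± 0.47). ENSRNOG00000047321 at chr10:15589364-15590220 had 2089, 4706, 9507 and 3818 CPM. ENSRNOG00000058105 at chr1:168971274-168972725, on another chromosome, had 1852, 4714, 9335 and 3823 CPM. LAP+ library 3 was highest and library 1 lowest in all 3 genes. The means of all 3 were higher still in both OC2 sorts, where ENSRNOG00000029886 averaged 19581 CPM (OC2-) and 26577 CPM (OC2+). The OC2+ values depend on scaling, since TMM set the size of OC2+ library 1 to 3876360 for 8965763 counts. Single libraries did not all follow the means. For ENSRNOG00000058105, LAP+ library 3 (9335 CPM) exceeded the OC2+ range of 5845 to 8744 CPM. For ENSRNOG00000029886, the same library (15395 CPM) exceeded OC2- library 3 (13489 CPM). Without gene names, markers of other cell types could not be measured beside these 3 genes, and the part of such cells was not tested. In RNA of whole cell pellets, more cells of a type and more RNA per cell cannot be told apart.

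Neighbouring genes were then followed as runs of at least 4 tested genes that were called at 2-fold the same way and lay no more than 500000 nt apart. There were 56 higher runs with 308 genes (10.1% of the higher 2-fold calls) and 31 lower runs with 143 genes (5.97%). With library totals alone the runs held 724 higher and 72 lower genes. The calls fixed the direction of each run, so the sums are a description. The longest run, 31 genes between 133552821 and 133898905 on chromosome 6, rose from 14.02, 14.5, 15.9 and 13.2 CPM in adult cells to 1528, 1947, 1314 and 1300 CPM in LAP+ cells (105.6-fold). Of its 31 genes, 28 are under 200 nt of exon, 30 are on the plus strand and 13 had no adult count. The median log2 difference was 6.53, or 5.04 with the genes lacking adult counts set to their bound. Its 2 most abundant members were ENSRNOG00000019584, at 7.61 ± 1.18 against 753 ± 373 CPM, and ENSRNOG00000059660, at 5.49 ± 0.693 against 619 ± 132 CPM. LAP+ library 2 held more of the former (1309 CPM) than the others (510 to 611 CPM) and less of the latter (486 CPM against 550 to 789 CPM).

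Other higher runs held longer genes or families of short ones. On chromosome 1, 8 genes between 215628785 and 216206200 rose from 96.5 ± 8.03 to 8447 ± 568 CPM, nearly all of it in ENSRNOG00000020369 and ENSRNOG00000040350; a minor member, ENSRNOG00000056268, lost its call without LAP+ library 4 (adjusted p = 0.0569). On chromosome 15, 9 genes between 34601037 and 35113678 rose from a sum of 1.38 ± 1.005 to one of 146.8 ± 67.6 CPM. On chromosome X, 8 genes between 106360393 and 106825014 rose from 45.4 ± 2.99 to 342.7 ± 12.1 CPM, with little spread among the LAP+ libraries (331.8 to 358.5 CPM). On chromosome 13, 9 features under 200 nt within 78852741 to 78855688 rose from 3.79 ± 0.850 to 28.3 ± 2.94 CPM; among them ENSRNOG00000060649, of 82 nt, went from 0.711 to 6.61 CPM. On chromosome 11, 8 genes between 66824065 and 67529051 summed to 30.2, 21.4, 22.9 and 552.4 CPM in LAP+ libraries 1 to 4, so the mean of 156.7 CPM rests on library 4; the adult libraries held 3.99 to 6.46 CPM.

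The lower runs included several that were nearly empty in LAP+ cells. On chromosome 5, 8 genes between 77245143 and 78131114 summed to 6514, 39.5, 7248 and 5952 CPM in adult libraries 1 to 4 and to 2.44 to 6.96 CPM in LAP+ cells. Adult library 2 stood apart from the other 3 here too. ENSRNOG00000013631, at the end of the run, fell by less: it went from 9.43 ± 0.981 to 4.44 ± 1.94 CPM and made up nearly all of what LAP+ cells held. Of the 8 members 5 had no LAP+ count, and the spans of 5 overlap another feature. Whether similar copies share reads here was not tested. On chromosome 1, 4 genes between 147422779 and 148287217 summed to 3067, 10943, 2309 and 2794 CPM in adult libraries and to 0.106 to 0.154 CPM in LAP+ cells. In this run adult library 2 was the high one. ENSRNOG00000021405 was its most abundant member, at 1440, 6281, 981 and 1492 CPM against 6 LAP+ counts in all. On chromosome 9, 5 genes between 4621425 and 4978892 went from 194.9 ± 95.7 to 0.419 ± 0.252 CPM, with 55.2 CPM in adult library 2, and 4 of them had no LAP+ count.

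Other lower runs fell by less and kept a level in LAP+ cells. On chromosome 14, 5 genes between 22072024 and 22619968 went from 3411 ± 1132 to 170.8 ± 14.04 CPM. Their falls were unequal: ENSRNOG00000001980 kept 163 of 530.7 CPM, ENSRNOG00000046540 kept 5.10 of 950.9 CPM, and ENSRNOG00000001957 had a single LAP+ count. On chromosome 10, 5 genes between 65664667 and 65773314 went from 4602 ± 558 to 1221 ± 194 CPM, of which ENSRNOG00000010031 gave 4552 and 1215 CPM. Also on chromosome 10, the run that starts at 56662242 went from 643.1 ± 80.2 to 232.9 ± 81.9 CPM. Its most abundant gene, ENSRNOG00000018693, stood at 363.1 ± 34.5 and 124.3 ± 66.8 CPM (adjusted p = 0.0254) and lost its call without LAP+ library 2, which held 30.2 CPM (adjusted p = 0.0508).

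Chromosome 20 held runs of both directions close together. Between 2515520 and 3197457, 7 genes fell from 506.7 ± 40.2 to 52.9 ± 11.9 CPM, led by ENSRNOG00000000777 at chr20:3176107-3179818 (346.6 ± 38.8 to 21.1 ± 5.55 CPM). Another of the 7, ENSRNOG00000000795, lost its call without adult library 2, LAP+ library 2 or LAP+ library 4 (adjusted p from 0.0784 to 0.171). Between 3973420 and 4508214, 10 genes fell from 778 ± 258 to 127.98 ± 20.9 CPM, led by ENSRNOG00000000443, of which adult library 2 held 789 CPM and the other adult libraries 335 to 414 CPM. Between 4983165 and 5076586, 8 genes rose from 41.4 ± 1.59 to 129.5 ± 16.2 CPM. With library totals alone, 6 of the 7, 10 of the 10 and, on chromosome 5, 7 of the 8 genes of the lower runs were called.

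**Figure D4:**
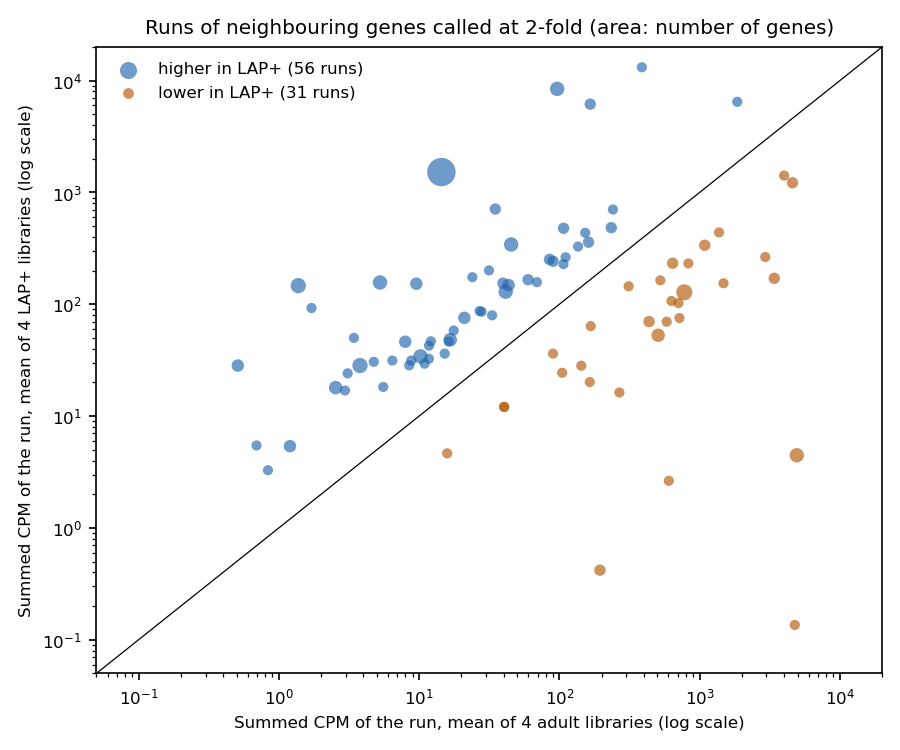
Summed CPM of each run of neighbouring genes, mean of the 4 adult libraries (horizontal, log scale) against the mean of the 4 LAP+ libraries (vertical, log scale), with the area of a point set by its number of genes and the line marking equal sums. The largest point is the 31-gene run of chromosome 6 at 14.4 and 1522 CPM, and 1 lower run lies at adult 4779 and LAP+ 0.136 CPM; each sum's side of the line follows from the calls that chose the run.

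The shares called higher and lower differed between kinds of features. Among the 189 nuclear features tested with under 200 nt of exon, 112 were called higher and 8 lower, and their median log2 difference was 2.20 against 0.06 over all genes, or 2.65 with library totals alone. Of the 112, 28 lie in the longest run on chromosome 6 and 9 in the run on chromosome 13. Of all genes 31.7% were called higher and 28.5% lower. Short features and genes of low abundance could pass the low-count filter through the group in which they were high, so their shares are a description. At 1000 CPM or more, of 72 nuclear genes 12 were called higher and 42 lower, with a median of -1.14. With library totals alone these counts were 21 and 39. Between 100 and 1000 CPM, 271 of 1036 genes were called higher and 518 lower; this median, -0.45, moved to 0.02 with library totals alone, and the counts to 348 and 394. On chromosome X, 36.5% of 419 genes were called higher and 23.2% lower. On chromosome 20, 29.4% of 411 genes were called higher and 34.3% lower. At 2-fold these shares were 20.9% and 23.4%, against 22.2% and 17.3% of all genes.

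**Figure D5:**
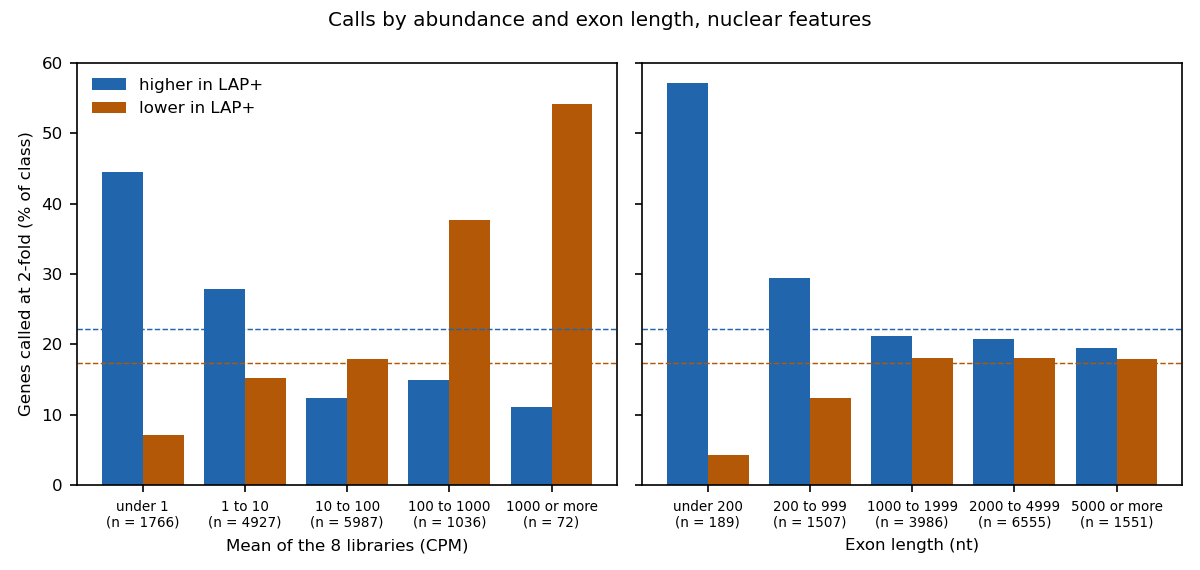
Share of nuclear genes called at 2-fold (percent of each class), higher in LAP+ cells in blue and lower in orange, by mean CPM of the 8 libraries (left) and by exon length (right); dashed lines mark the shares over all genes tested, 22.2% and 17.3%, and n is the number tested. The blue bars fall from 44.5% under 1 CPM to 11.1% at 1000 CPM or more while the orange bars rise from 7.08% to 54.2%, and the blue bar stands at 57.1% for features under 200 nt; genes of low abundance could pass the filter through the group in which they were high.

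Most of the longer mitochondrial features were lower in LAP+ cells. Mitochondria carry their own small genome, which codes for subunits of the respiratory chain. Of its 13 features of 200 nt or more, 10 were called lower, against 28.5% of all genes, and none higher (median log2 difference -1.22). Abundant nuclear genes were also called lower more often, 58.3% at 1000 CPM or more and 50% between 100 and 1000 CPM. With library totals alone 8 of the 13 mitochondrial features were called lower. The calls of ENSRNOG00000031033, ENSRNOG00000031979 and ENSRNOG00000029042 were lost without LAP+ library 2 or LAP+ library 4 (adjusted p from 0.0690 to 0.126), and those of the latter pair also without adult library 2 (adjusted p = 0.0767 and 0.0510). Of the 17 mitochondrial features under 200 nt, 5 were called lower and 1 higher, with a median of -0.81. ENSRNOG00000034234 at 5323 to 6867 of the mitochondrial sequence went from 34505 ± 9947 to 14609 ± 3713 CPM (log2 -1.24, adjusted p = 0.0139). The LAP+/OC2+ libraries, whose spread entered the fit, held 125169 to 629437 CPM of it. ENSRNOG00000029707 and ENSRNOG00000031053, which overlap at their ends, fell by most, each with a log2 difference of -2.32. The summed share of counts on all mitochondrial features was 7.62, 7.66, 10.3 and 5.31% in adult libraries and 6.42, 4.11, 4.93 and 4.69% in LAP+ libraries. The groups overlapped, and the difference in this share did not pass (2-sided exact permutation test, p = 0.0571, also 0.0571 after adjustment over 3 measures).

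The composition of the libraries differed in breadth and in concentration. LAP+ libraries held 14364, 14317, 14040 and 14355 features with at least 5 counts, and adult libraries 13026, 13155, 13213 and 13009. The groups did not overlap (exact permutation p = 0.0286, the smallest that 4 against 4 libraries can give, adjusted p = 0.0429). The 20 most abundant nuclear features took 36.4 ± 1.74% of nuclear counts in LAP+ and 32.2 ± 0.605% in adult libraries (SD, n = 4 each), with the same exact permutation p and adjusted p. For the 50 most abundant features the difference was 1.17 percentage points and did not pass (adjusted exact permutation p = 0.257). LAP+ libraries thus detected more features and also gave a larger share of counts to their 20 leading ones.

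Single libraries stood far from the rest of their group at some genes. ENSRNOG00000010410 at chr6:127996165-128003418 fell from 6012 ± 1538 CPM to 435, 4.41, 356 and 267 CPM in LAP+ libraries 1 to 4. ENSRNOG00000010478, whose span chr6:127941526-128080889 contains it, showed the same order at 808, 26.8, 751 and 593 CPM. Both stayed called lower without LAP+ library 2, at log2 differences of -4.09 and -3.24 in place of -4.50 and -3.64. ENSRNOG00000012436 at chr2:243550627-243687857 differed in both groups, with 3014 CPM in adult library 2 against 511 to 627 CPM and 111.4 CPM in LAP+ library 2 against 526 to 794 CPM. It was not called (log2 -1.18, adjusted p = 0.209), nor without adult library 2 (adjusted p = 0.893) or LAP+ library 2 (adjusted p = 0.377). In the order given, LAP+/OC2- library 1 was low too, at 59.7, 86.6 and 106.6 CPM. The other LAP+/OC2- libraries held 315 to 429, 659 to 784 and 559 to 657 CPM. The LAP+/OC2+ means were 48.4, 80.8 and 78.5 CPM. The labels do not tie adult library 2 to LAP+ library 2. Among genes at 10 CPM or more, the median SD of log2 CPM between libraries was 0.191 in LAP+ and 0.169 in adult cells, so most genes varied far less than these.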

How the data were processed

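Raw whole-number counts per feature were deposited by the authors, with exon coordinates and lengths per the file headers. The submitters' processing notes name bcl2fastq 2.17, Trimmomatic 0.36, STAR 2.5.2b and, for counting, featureCounts (Subread 1.5.2). The build, the annotation's release and how strand was set were not given in the sources used here. Reads of overlapping or antisense features therefore cannot be separated, and highly similar gene copies can divide their reads.

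Counts of the 16 libraries made before transplantation were fitted together with edgeR 4.0.16 under R 4.3.3, using filterByExpr, TMM factors and the quasi-likelihood F test with robust dispersions and without a block. The contrast was LAP+ minus adult, with Benjamini-Hochberg adjustment over all genes at 0.05. CPM use TMM-scaled library sizes. Single measures were tested with 2-sided exact permutation tests in scipy 1.17.1. Alternatives were RLE factors, library totals alone, other filters, DESeq2 1.42.0, limma-voom (limma 3.58.1), other sets of libraries, the replicate block and leaving out each library; library totals alone and the fit without LAP+/OC2+ libraries were chosen after seeing the data. Genes were named by a rule: the 10 largest differences in each direction among genes past the test, at least 2-fold, at 10 CPM or more in the higher group and with groups apart; the 10 most abundant nuclear genes per kilobase in each group; and the most abundant member of the 5 longest runs in each direction. Genes outside that rule (neighbours of the abundant genes, members of runs, genes that 1 library sets apart, mitochondrial features) were chosen after their values were seen. The planned lists of symbols and cell type markers could not be used, since no table paired identifiers with names; no sequence is shown for the same reason. The comparison and the lists were chosen with earlier results of these data known.

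In simulated data with 200 changed genes among 12883 for the 8 libraries, edgeR recovered 60% of 2-fold and 97% of 4-fold changes, and 3.68% of calls were false. The real data held far more calls, 8330 of 13818 genes, from a fit of 16 libraries. The simulation set no shift in scaling between the groups. Its rates therefore need not hold for the calls reported here. Replicate numbers did not pair the groups. All 12 replicate pairs differed by more than sampling noise, with chi-square values of 20.2 to 115.4 per degree of freedom.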

Additional observations from a re-analysis of the deposited data

Results flagged for a closer look

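In 108 groups of 4 libraries examined for named values, 20 held a library far from the other 3 by Dixon's criterion. For independent, unselected groups chance gives about 1 in 20. These groups were not independent, and some genes were picked for large differences, so the count is a description. LAP+ library 3 had the fewest features detected of its group, 14040. LAP+ library 4 was the high one for ENSRNOG00000038133 (48.2 CPM), ENSRNOG00000050110 (42.6 CPM), ENSRNOG00000050586 (368.1 CPM), ENSRNOG00000032728 (75.6 CPM), ENSRNOG00000030093 (589.8 CPM) and the summed run on chromosome 11 that starts at 66824065 (552.4 CPM). Adult library 2 was the low one for ENSRNOG00000009273 (11.98 CPM), ENSRNOG00000032669 (8823 CPM, against 12530 to 13131 CPM) and ENSRNOG00000016275 (6606 CPM).

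LAP+ library 2 was the high one for ENSRNOG00000019584 (1309 CPM), LAP+ library 3 for ENSRNOG00000020369 (6721 CPM) and adult library 4 for ENSRNOG00000000777 (404.8 CPM). The remaining 7 are single counts beside libraries with none: ENSRNOG00000045799 and ENSRNOG00000009273 in LAP+ library 1 (0.0513 CPM each), ENSRNOG00000050595 and ENSRNOG00000001957 in LAP+ library 4 (0.0501 CPM each), ENSRNOG00000043131 and ENSRNOG00000024016 in LAP+ library 3 (0.0530 CPM each) and ENSRNOG00000050110 in adult library 1 (0.0750 CPM). A single count beside zeros always meets the criterion and does not set a library apart in any other sense.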

How the results depend on the processing

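Of the counts over all genes, 1 direction moved by over 1.5 times: with library totals alone, 2025 genes were called lower and 1514 lower at 2-fold. The genes in runs depended on the run's definition. Those in higher runs numbered 608 with at least 3 genes per run, 139 with at least 6, 736 with calls at any fold and 724 with library totals alone; those in lower runs numbered 380, 25, 460 and 72. The share in the 50 most abundant features differed by 1.17 percentage points and did not pass. Leaving out each library in turn gave differences of 3.83 to 5.08 percentage points for the 20 most abundant features and of 1137 to 1245 features detected; 4 against 3 libraries cannot reach an exact p below 0.0571, so none passed. The replicate block, in a fit of the 8 libraries, called 4038 genes higher and 3789 lower, and same-numbered libraries correlated between -0.12 and 0.06 in their deviations from the group means, so the numbers were not taken as a pairing; no LAP+ library correlated best with the adult library of its own number. Of 41 named genes, ENSRNOG00000002911 was called lower with 8 libraries, with the replicate block (adjusted p = 0.0365) and without LAP+/OC2+ libraries (adjusted p = 0.0157), and ENSRNOG00000018693 lost its call with no low-count filter (adjusted p = 0.0655). The causes were not tested. Depth limits statements on genes below 0.132 to 0.225 CPM.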
